A study of Mus musculus with 12 samples.

Results

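The genes for the eukaryotic translation initiation factors (eIFs), their subunits and their direct regulators were followed in the hippocampus of mice that differed in fear extinction, the decline of a learned fear when the feared cue or place returns without harm. Members were the gene symbols that begin with Eif and a digit from 1 to 6, followed only by letters and digits. Eif2s3x and Eif2s3y, the X-linked and Y-linked copies of the gamma subunit of eIF2, and symbols marked as pseudogenes were left out. The rule gave 54 genes of the 52636 in the deposited tables, and it used no measured value. RNA came from 12 wild-type C57BL6/J mice aged 18 weeks, in 4 groups of 3 mice: low-extinction males, high-extinction males, low-extinction females and high-extinction females. Each library came from a different mouse, and the sources used here do not say how extinction was scored. All changes are low minus high extinction, so a negative log2 change means a lower level in low-extinction mice.

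Initiation is the step at which the ribosome is loaded onto an mRNA. The eIF4F complex, made of the cap-binding protein eIF4E, the scaffold eIF4G and the RNA helicase eIF4A, prepares the capped end of the mRNA. eIF2 brings the initiator tRNA to the small ribosomal subunit, which eIF3, eIF1 and eIF1A hold open while it scans for the start codon, and eIF5 and eIF5B then allow the large subunit to join. The step has brakes at several points: the 4E-binding proteins hold eIF4E away from eIF4G until mTOR phosphorylates them, and the eIF2α kinases block the recycling of eIF2 by eIF2B, a response known as the integrated stress response. In the brain, new protein synthesis is needed for lasting memory, and mice with reduced eIF2α phosphorylation or without 4E-binding protein 2 are known for altered synaptic plasticity and memory.

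Promoter sequences are shown for a pair of members, neither of which was called in any comparison. Eif4ebp2, the gene for the main 4E-binding protein of the brain, had the smallest p-value of all members in the deposited count tables, and Eif4e encodes the protein that it binds. The 250 bases before their start sites in GRCm38 (RefSeq, GRCm38.p6) follow, 5′ to 3′, with motif matches in capitals. The Eif4ebp2 stretch is chr10:61452670-61452919 on the minus strand and that of Eif4e, 1 of 2 starts in the table, is chr3:138527018-138527267 on the plus strand. This Eif4e start was chosen because its 250 bases hold an E-box (CACGTG), which those of the other Eif4e start do not.
Eif4ebp2: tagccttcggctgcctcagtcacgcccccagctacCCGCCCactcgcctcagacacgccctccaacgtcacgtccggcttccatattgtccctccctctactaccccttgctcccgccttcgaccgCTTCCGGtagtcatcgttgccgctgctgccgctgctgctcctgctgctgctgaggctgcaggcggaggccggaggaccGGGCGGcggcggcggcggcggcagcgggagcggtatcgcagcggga
Eif4e: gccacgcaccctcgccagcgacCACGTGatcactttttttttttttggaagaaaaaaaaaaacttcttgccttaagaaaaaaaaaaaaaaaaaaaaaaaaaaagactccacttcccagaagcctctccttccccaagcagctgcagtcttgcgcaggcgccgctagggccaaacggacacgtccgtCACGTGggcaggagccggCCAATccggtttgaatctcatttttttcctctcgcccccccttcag
The capitals mark an ETS motif (CCGGAAG) and GC boxes (GGGCGG) in Eif4ebp2, and E-boxes (CACGTG) and a CCAAT box in Eif4e, read on either strand.

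RefSeq held 55 promoters for 42 of the 54 genes, each from 250 bases before to 50 after a start, and they were compared with 32851 promoters of all genes by motif letters alone, on both strands. The E-box occurred in 12 of the 55 (21.8%, against 7.15% of all promoters), among them those of Eif4e, Eif4a1, Eif4g1, Eif4h, Eif5a and Eif3a. The ETS motif occurred in 19 (34.5%, against 8.86%) and the GC box in 38 (69.1%, against 35.7%). The CCAAT box occurred in 15 (27.3%, against 37.4%), and the TATA box (TATAAA) in 3 (5.45%, against 13.6%). The amino acid response element (TGATGNAA) and the YY1 motif occurred in 0 of the 55, against 3.97% and 0.852% of all promoters. These are matches of letters, not measured binding.

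Several members are copies of one another, and their coding sequences show how alike they are. Coding bases 1 to 90 of Eif1 and of its paralog Eif1b, and the stretch around the codons of the DEAD-box motif in Eif4a1 (coding bases 505 to 594) and Eif4a2 (511 to 600), are given with the bases that differ within each pair in capitals.
Eif1: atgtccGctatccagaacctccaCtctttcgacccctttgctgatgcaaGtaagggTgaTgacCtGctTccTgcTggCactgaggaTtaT
Eif1b: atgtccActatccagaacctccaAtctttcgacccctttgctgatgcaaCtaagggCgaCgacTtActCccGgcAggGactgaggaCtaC
Eif4a1: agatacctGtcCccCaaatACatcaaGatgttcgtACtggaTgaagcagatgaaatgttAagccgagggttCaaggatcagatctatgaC
Eif4a2: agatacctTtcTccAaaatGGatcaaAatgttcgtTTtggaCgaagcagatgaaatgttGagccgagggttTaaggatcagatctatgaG
The Eif1 pair differed at 13 of these 90 bases and the Eif4a1 and Eif4a2 pair at 12. Over the whole coding sequence (the longest open reading frame in GENCODE M21 transcripts) identity was 81.3% for Eif1 and Eif1b, 77.8% for Eif4a1 and Eif4a2, 65.7% for Eif4a1 and Eif4a3 and 72.7% for Eif5a and Eif5a2. Eif3j1 and Eif3j2 were 99.2% identical, so reads could hardly be assigned between them, and their values are uncertain.

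Levels are the deposited TPM (transcript abundance per unit length, as a share of the library), which set each library to the same total, so they keep no record of depth. Fold changes called the authors' are from their deposited count-based DESeq2 tables. All 8 hippocampal neuron markers, among them Prox1, Wfs1 and Camk2a, were detected and summed to between 1548 and 1897 TPM in every library. The summed choroid plexus markers, 11 of 11 with a mean of at least 1 TPM, ran from 153 to 1333 TPM in low-extinction males, against 526 to 4364 TPM in high-extinction males. They ran from 246 to 1578 TPM in low-extinction females, against 142 to 1692 TPM in high-extinction females. Ependymal markers (8 of 8) summed to between 19 and 40.8 TPM in low-extinction males, against 55.4 to 65.8 TPM in high-extinction males. In females these groups overlapped, at 40 to 69.2 TPM at low and 25.7 to 57.7 TPM at high extinction. Meningeal fibroblast markers (8 of 8) summed to between 102 and 125 TPM in low-extinction females, against 76.1 to 82.2 TPM in high-extinction females. The male groups overlapped, at 47.3 to 81.2 TPM at low and 61.2 to 98.4 TPM at high extinction. Of the thalamic markers, 7 of 8 had a mean of at least 1 TPM. All 8 summed to between 127 and 142 TPM in low-extinction females, against 84.7 to 107 TPM in high-extinction females. Here too the male groups overlapped, at 67.5 to 97.8 TPM at low and 85.9 to 110 TPM at high extinction. Ribosomal RNA-derived transcripts took from 6% to 20.4% of a library. The part of these differences in the values below was not tested, and in whole tissue fewer cells of a type and less RNA per cell cannot be told apart.

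The hippocampus expressed nearly the whole initiation machinery. Of the 54 genes, 51 had a mean of at least 1 TPM over the 12 libraries, Eif3j2 only through 22.1 TPM in low-extinction male 2. The other 3 were Eif4e1b, a cap-binding protein gene known for its expression in oocytes, listed at 0 in all libraries, Eif4ebp3, with a median of 0.576 TPM, and Eif2c5, a long noncoding RNA gene on the X chromosome whose symbol the rule matched and which has no role in initiation that is used here, with 0.0588 TPM in 1 library and 0 in 11. The 2 sexes' TPM tables were made separately, so levels over all 12 libraries are given as a description. The helicase gene Eif4a2 had the highest median, 318.6 TPM, followed by Eif4h, which stimulates the helicase, with 232.6 TPM, Eif5a, with 212.6 TPM, and Eif4g2, with 167.9 TPM. The ranges of Eif4h (202 to 250.2 TPM), Eif5a (190.5 to 245.6 TPM) and Eif4g2 (151.7 to 272.1 TPM) overlapped. The order of Eif4h, Eif5a and Eif4g2 within single libraries was not tested. The lowest Eif4a2 library lay at 271.2 TPM, above all Eif4h and Eif5a libraries and below the highest Eif4g2 library. In that Eif4g2 library, high-extinction female 2, Eif4a2 had 320 TPM, so Eif4a2 was the highest of these genes in each of the 12 libraries.

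By role, the median of the members' medians was 86.7 TPM in the eIF4F group, 72.3 TPM for the factors of start site selection and subunit joining and 69.4 TPM for eIF3 subunits. It was 24 TPM for the eIF2 and initiator tRNA group, 23.1 TPM for eIF2B and 13.5 TPM for the eIF2α kinases. The eIF3 subunits, which form 1 complex, ran from 11.8 TPM for Eif3j1 and 24.7 TPM for Eif3m to 120.9 TPM for Eif3k, leaving out Eif3j2. Within eIF2B, all subunits except Eif2b3, with 10.57 TPM, had medians between 18.8 and 29.2 TPM. Among the inhibitors of eIF4E, Eif4ebp1 had a median of only 1.33 TPM.

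**Figure D1:**
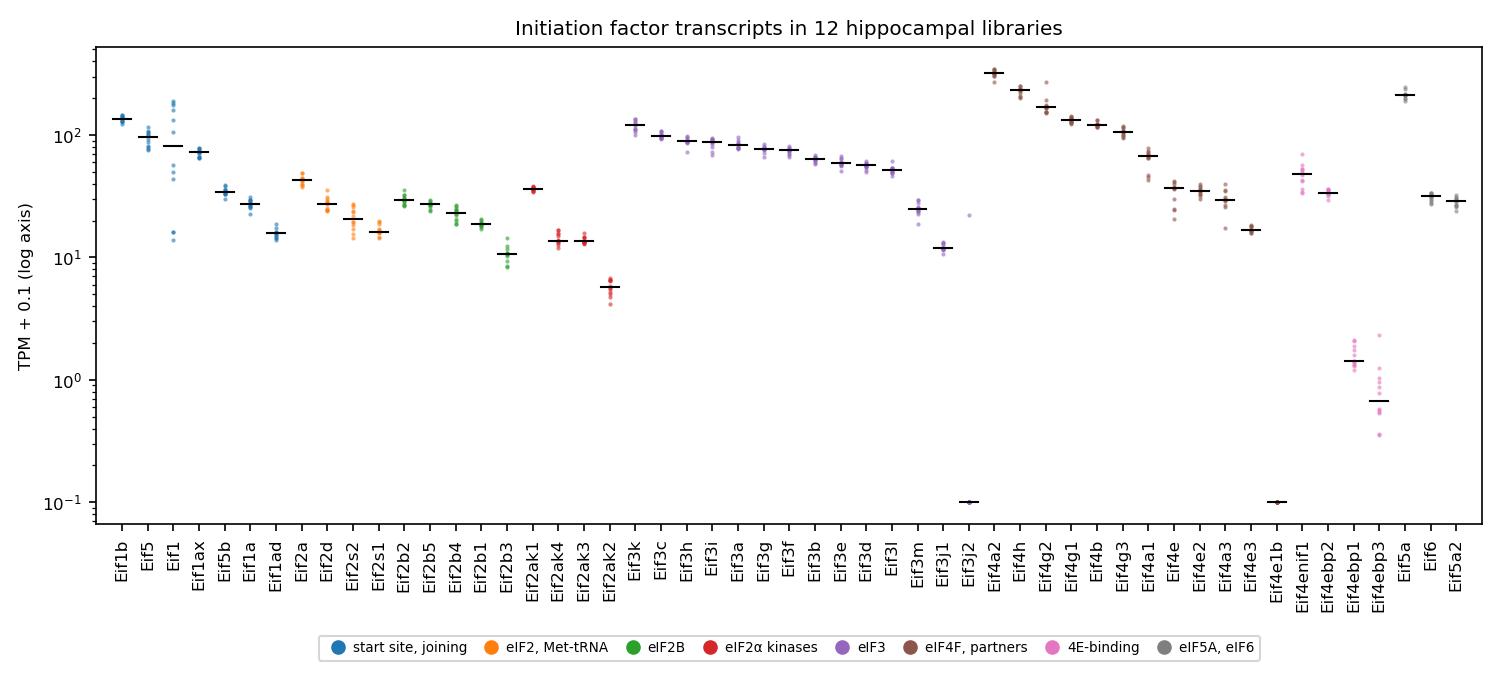
TPM + 0.1 on a log axis of the 53 genes assigned to a role group, coloured by role and ordered by median within it. Each point is 1 of 12 libraries and each bar is the median; Eif4a2 is the highest at 318.6 TPM, Eif1 has the widest spread among genes above 10 TPM, and Eif3j2 and Eif4e1b lie at 0 in 11 and 12 libraries.

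Paralogs of the same family differed in level. Eif4a2 made up a median of 82.5% of the summed Eif4a1 and Eif4a2 TPM, with a range over libraries of 80.6% to 88.3%. The share was 84% ± 2.4 in low-extinction males and 83.6% ± 4.1 in high-extinction males, and 81.9% ± 0.57 in low-extinction females and 84.3% ± 3.6 in high-extinction females (SD, n = 3 each). Eif4ebp2 held 93.7% of the TPM of the 3 4E-binding protein genes (range 90.4% to 96.1%), Eif5a2 11.8% of the eIF5A pair (9.7% to 13.3%) and Eif1ax 72.7% of the eIF1A pair (70.2% to 74.3%). In none of these 4 families did the group means differ by more than the sum of their SDs between low and high extinction in males, and in females the exception was Eif4ebp2, at 91.5% ± 1 at low and 94.3% ± 1.6 at high extinction (SD, n = 3 each). The Eif4ebp2 levels of the female groups overlapped, and Eif4ebp3, in the same sum, had 0.859, 1.15 and 2.21 TPM in low-extinction females, against 0.252, 0.939 and 0.468 TPM in high-extinction females.

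None of the members passed an adjusted p of 0.05 in any comparison. DESeq2 in the authors' deposited tables called 0 of 52 members in males, where 0.504% of all genes were called, and 0 of 51 in females, where 0.857% were. Unadjusted p in the authors' deposited tables lay under 0.05 for 1 member in males (7.61% of all genes) and for 4 in females (9.95%). With limma, a linear model on log2(TPM + 1), 0 of 51 members were called in males (0% of all genes), 0 of 50 in females (0.0107%), 0 of 51 on average over the sexes (0%) and 0 of 51 for the male minus female change (0.00541%). Unadjusted limma p lay under 0.05 for 0 members in males (6.29% of all genes), 3 in females (8.83%), 2 on average (7.7%) and 1 for the difference between the sexes (7.92%). A share of members at or below that of all genes is no result about the members.

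By the authors' count-based standard errors, most members had narrow intervals of the change. Depth per library is unknown. The width of an interval depends on the count level, and members were not compared with genes of like counts. The standard error from TPM was over 3 times the authors' for 6 of 51 members in males and 4 of 50 in females, as given below. Of the 52 members with an adjusted p in the authors' deposited table of males, 48 had a 95% interval of the fold change that lay wholly within 1.25-fold either way, and of all genes 40.7% did. The 4 exceptions were Eif2ak2, Eif3m, Eif4ebp1 and Eif4ebp3. Of the members in the authors' deposited table of females, 44 of 51 lay within 1.25-fold, where 56.4% of all genes did, and the 7 exceptions were Eif1ad, Eif2ak2, Eif2b1, Eif2b2, Eif2d, Eif3i and Eif4ebp1. Within 1.5-fold lay 50 of 52 members in males and 50 of 51 in females, the exceptions being Eif4ebp1 in both sexes and Eif4ebp3 in males. In females Eif4ebp3 had no adjusted p and is not among the 51; its log2 change in the authors' deposited table was 0.99 (SE 0.57), with a 95% interval from 0.918-fold to 4.3-fold and a mean normalized count of 19.5. Eif4ebp1 had a mean normalized count of only 56.4 in males and 67.9 in females in the authors' deposited tables.

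The median log2 change of the members lay at 0.00 in males and -0.03 in females in the authors' deposited tables, against -0.01 in each sex over all genes. Of the members, 26 of 52 (50%) had a change above 0 in males, against 48.4% of all genes, and 20 of 51 (39.2%) in females, against 44.8%. On log2(TPM + 1) the medians were -0.01 in males and 0.04 in females, against -0.02 and 0.06 over all genes. On that scale 20 of 51 members had a change above 0 in males (43.1% of all genes), 34 of 50 in females (69.1%), 30 of 51 on average over the sexes (57.8%) and 12 of 51 for the male minus female change (31.5%). Eif3j2, which had TPM only in low-extinction male 2, is among those counted in males, on average and for the male minus female change.

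**Figure D2:**
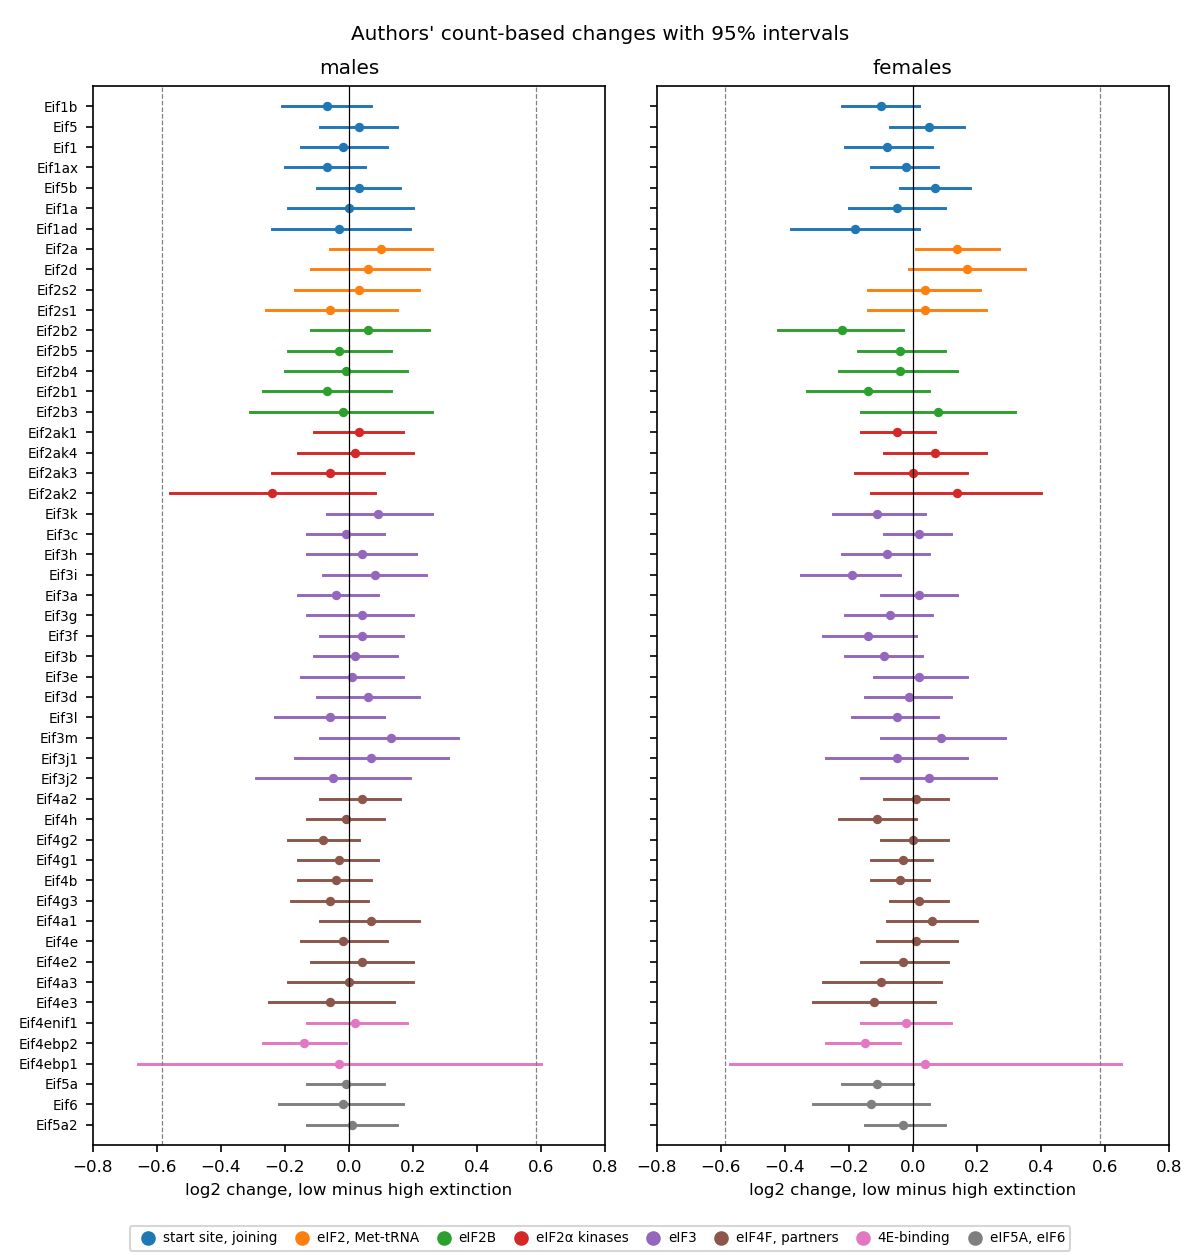
Log2 change (low minus high extinction) of 51 members in the authors' deposited tables of males and females, coloured by role, with the 95% interval as a line and 1.5-fold as dashed lines. Nearly all intervals span 0 and lie within 1.5-fold; Eif4ebp2 lies below 0 in both sexes, Eif4ebp1 has the widest interval drawn, and Eif4ebp3, whose interval is wider than the axis, is not drawn.

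The 4E-binding proteins are the brakes on cap binding. Eif4ebp2 lies on chromosome 10 from 61428491 to 61452661, minus strand. It had 29.2, 32.7 and 31.8 TPM in low-extinction males, against 33.2, 35.6 and 35.9 TPM in high-extinction males. It had 34.4, 32.8 and 33.3 TPM in low-extinction females, against 36.2, 35.7 and 33.4 TPM in high-extinction females. Every low-extinction male lay below every high-extinction male, and the female groups overlapped by 1 library on each side. Eif4ebp2 was the 1 member of 51 with separated male groups in that direction, which 7.28% of all genes had, and 0 of 51 were separated the other way (4.2% of all genes).

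The authors' deposited tables put Eif4ebp2 at a log2 change of -0.14 (SE 0.07, p = 0.0389, DESeq2 adjusted p = 0.607) in males and -0.15 (SE 0.06, p = 0.00961, DESeq2 adjusted p = 0.278) in females. These are folds of 0.908 and 0.899, with 95% intervals from 0.828 to 0.995 and from 0.829 to 0.974. The inverse-variance mean of these DESeq2 changes over both sexes was -0.15 (SE 0.04, 95% interval -0.24 to -0.06). Its Wald test, adjusted over 15642 genes, gave an adjusted p of 0.0626, which missed the threshold. Of all genes 1.29% passed it and 0 of 51 members did, while 2 members, Eif4ebp2 and Eif2a, had an unadjusted p under 0.05 (10.9% of all genes). With limma on TPM the average change was -0.11 (SE 0.05, limma adjusted p = 0.597). The male minus female difference was 0.01 (95% interval -0.16 to 0.19) between the changes of the authors' deposited tables and -0.09 (SE 0.09) by limma.

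Of the other inhibitors, Eif4ebp1 had 1.33, 1.31 and 1.24 TPM in low-extinction males, against 1.10, 1.67 and 1.22 TPM in high-extinction males, and 1.97, 1.80 and 1.33 TPM in low-extinction females, against 1.20, 1.49 and 2.02 TPM in high-extinction females. The groups overlapped in both sexes. Eif4enif1, which encodes the eIF4E transporter, had 34.4, 57.0 and 69.4 TPM in low-extinction males, against 36.1, 46.9 and 33.4 TPM in high-extinction males, and 42.6, 52.3 and 48.5 TPM in low-extinction females, against 52.7, 50.3 and 42.2 TPM in high-extinction females. Its groups overlapped too, and 2 low-extinction males stood above the other 10 libraries. The limma change in males was 0.41 (SE 0.25, limma adjusted p = 0.88), while the authors' deposited table gave 0.02 (SE 0.08). The limma change was 0.70 without low-extinction male 1 (limma adjusted p = 0.624) and 0.20 without low-extinction male 3. Eif4enif1 overlaps Drg1 on the opposite strand, and no source used here says if reads were counted by strand. Other members overlap a coding gene too, among them Eif2d (Rassf5), Eif5b (Rev1), Eif2b4 (Snx17) and Eif2s2 (a) on the opposite strand. Eif4ebp3 overlaps the coding gene AC115631.1 on its own strand. The part of these overlaps in the values was not tested.

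The initiator tRNA group held the member with the smallest TPM-based p. Eif2a encodes a factor that can bring initiator tRNA to the ribosome apart from eIF2, and is not the gene of eIF2α, which is Eif2s1. It lies on chromosome 3 from 58525821 to 58557501, plus strand, and overlaps Serp1 on the opposite strand. Eif2a had 43.8, 42.8 and 43.6 TPM in low-extinction males, against 38.6, 37.5 and 44.7 TPM in high-extinction males. It had 44.8, 49.3 and 49.3 TPM in low-extinction females, against 38.7, 40.1 and 42.4 TPM in high-extinction females. The female groups did not overlap, and in males high-extinction replicate 3 lay above the 3 low-extinction libraries.

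The limma log2 change of Eif2a was 0.24 in females (SE 0.07, limma adjusted p = 0.499), 0.11 in males (SE 0.09, limma adjusted p = 0.934; 0.06 without high-extinction male 2 and 0.19 without high-extinction male 3) and 0.17 on average (SE 0.05, limma adjusted p = 0.46). The authors' deposited tables gave 0.10 (SE 0.08) in males and 0.14 (SE 0.07, p = 0.0297, DESeq2 adjusted p = 0.429) in females. The inverse-variance mean was 0.13 (95% interval 0.02 to 0.23, adjusted p = 0.289), so Eif2a did not pass in any of these tests.

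Eif2d encodes a second protein that can deliver tRNA to the start codon and also takes part in ribosome recycling. It had 24.5, 27.1 and 27.6 TPM in low-extinction males, against 24.0, 24.2 and 29.8 TPM in high-extinction males, and 31.2, 28.4 and 35.5 TPM in low-extinction females, against 24.2, 28.7 and 25.2 TPM in high-extinction females. In females 2 of 3 low-extinction libraries lay above all high-extinction ones. The limma change in females was 0.27 (SE 0.10, limma adjusted p = 0.55), and the authors' deposited table gave 0.17 (SE 0.09, DESeq2 adjusted p = 0.539).

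Eif2s1, the gene of the phosphorylated α subunit of eIF2, had 16.2, 16.1 and 14.4 TPM in low-extinction males, against 14.7, 15.9 and 19.4 TPM in high-extinction males. It had 16, 19.8 and 18.6 TPM in low-extinction females, against 17.0, 15.8 and 16.6 TPM in high-extinction females. The groups overlapped in both sexes, and the authors' deposited tables gave -0.06 (SE 0.11) in males and 0.04 (SE 0.09) in females. Eif2s2, the β subunit, ranged from 14.4 to 27.1 TPM with overlapping groups. All 4 genes of the group had a change above 0 in the authors' deposited table of females (44.8% of all genes). In that of males 3 of 4 did (48.4%). The medians were 0.09 in females and 0.05 in males, and no gene was called.

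The exchange factor eIF2B recharges eIF2 with GTP. Eif2b2, its β subunit, had 32.4, 32.2 and 29.2 TPM in low-extinction males, against 35.4, 30.7 and 26.9 TPM in high-extinction males. It had 26.9, 26.2 and 29.2 TPM in low-extinction females, against 28.9, 27.9 and 30.3 TPM in high-extinction females. Both pairs of groups overlapped. Its change in the authors' deposited tables was 0.06 (SE 0.09) in males and -0.22 (SE 0.10, DESeq2 adjusted p = 0.398) in females, and the male minus female difference of 0.29 (SE 0.14) had an adjusted p of 0.678.

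Eif2b3, the γ subunit, had 10.5, 10.6 and 10.2 TPM in low-extinction males, against 8.21, 12.2 and 9.25 TPM in high-extinction males. It had 11.7, 10.8 and 14.2 TPM in low-extinction females, against 8.37, 10.6 and 10.7 TPM in high-extinction females. The female groups were separated by a narrow gap, and the limma change of 0.28 (SE 0.13) had a limma adjusted p of 0.585. It was 0.18 without low-extinction female 3 and also without high-extinction female 1. Eif2b4, the δ subunit, had 20.5, 22.5 and 19.6 TPM in low-extinction males, against 22.1, 25.1 and 24.2 TPM in high-extinction males, and 23.8, 18.5 and 26.3 TPM in low-extinction females, against 24.2, 26.6 and 18.5 TPM in high-extinction females. Its male groups overlapped by 1 library on each side, and the male limma change was -0.18 (SE 0.09, limma adjusted p = 0.844). The catalytic ε subunit Eif2b5 had 26.6, 23.8 and 27.4 TPM in low-extinction males, against 24.4, 28.8 and 27.0 TPM in high-extinction males, and 27.7, 26.5 and 29.2 TPM in low-extinction females, against 25.8, 27.1 and 27.4 TPM in high-extinction females. Those groups overlapped, and its changes in the authors' deposited tables were -0.03 (SE 0.08) in males and -0.04 (SE 0.07) in females. Eif2b1 had -0.07 (SE 0.10) and -0.14 (SE 0.10) there.

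The eIF2α kinases each sense another stress: Eif2ak1 (HRI) haem shortage, Eif2ak2 (PKR) double-stranded RNA, Eif2ak3 (PERK) unfolded proteins of the endoplasmic reticulum and Eif2ak4 (GCN2) amino acid shortage. Eif2ak1 was the most abundant, at 34.2 to 38.0 TPM, and had the smallest relative spread of all members over the 12 libraries, a coefficient of variation of 3.55%. Eif2ak2 had 6.49, 5.46 and 4.04 TPM in low-extinction males, against 4.90, 5.12 and 4.66 TPM in high-extinction males, and 6.73, 6.34 and 6.48 TPM in low-extinction females, against 5.79, 6.47 and 5.57 TPM in high-extinction females. The groups overlapped in both sexes.

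Eif2ak2 in the authors' deposited tables had a log2 change of -0.24 (SE 0.16) in males and 0.14 (SE 0.13) in females, and the difference of -0.37 (95% interval -0.79 to 0.04) had an adjusted p of 0.788. The male limma change of Eif2ak2 was 0.09 (SE 0.16), but its sign rested on single libraries, with -0.04 without low-extinction male 1 and 0.24 without low-extinction male 3. Eif2ak3 had 12.9, 12.7 and 13.3 TPM in low-extinction males, against 13.0, 13.3 and 14.6 TPM in high-extinction males, and 13.3, 15.6 and 14.2 TPM in low-extinction females, against 13.5, 14.5 and 13.6 TPM in high-extinction females. Its groups overlapped, with changes of -0.06 (SE 0.09) in males and 0.00 (SE 0.09) in females in the authors' deposited tables.

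Among the 14 eIF3 genes, 10 had a change above 0 in males (48.4% of all genes) and 5 in females (44.8%) in the authors' deposited tables. The medians were 0.04 in males and -0.05 in females. Eif3i, a WD-repeat subunit, had 79.4, 92.3 and 83.9 TPM in low-extinction males, against 68.0, 92.5 and 87.3 TPM in high-extinction males, and 93.8, 72.8 and 87.7 TPM in low-extinction females, against 90.8, 91.1 and 88.1 TPM in high-extinction females. The groups overlapped in both sexes. Its change in the authors' deposited tables was 0.08 (SE 0.08) in males and -0.19 (SE 0.08, p = 0.0133, DESeq2 adjusted p = 0.308) in females. The male minus female difference of 0.27 (95% interval 0.05 to 0.50) had an adjusted p of 0.522, so a difference between the sexes was not shown. Of the 51 members, 0 passed for this difference (0.409% of all genes), and 2, Eif3i and Eif2b2, had an unadjusted p under 0.05 (6.81% of all genes).

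Eif3c, a core subunit, had 95.9, 94.2 and 92.9 TPM in low-extinction males, against 101, 94.3 and 105 TPM in high-extinction males. It had 99.9, 107 and 108 TPM in low-extinction females, against 94.2, 99.4 and 95.4 TPM in high-extinction females. The female groups did not overlap and the male groups overlapped by 1 library on each side. The limma male minus female change was -0.20 (SE 0.09, limma adjusted p = 0.606), and in the authors' deposited tables the changes were -0.01 (SE 0.06) in males and 0.02 (SE 0.05) in females.

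The scaffold subunit Eif3a had 78.9, 79.2 and 76.7 TPM in low-extinction males, against 78.2, 78.9 and 88.2 TPM in high-extinction males, and 84, 96.8 and 90.4 TPM in low-extinction females, against 84.8, 83.7 and 83.2 TPM in high-extinction females. Eif3f had 75.8, 75.3 and 77.6 TPM in low-extinction males, against 69.5, 74.0 and 80.8 TPM in high-extinction males, and 75.2, 66.5 and 75.8 TPM in low-extinction females, against 78.8, 68.9 and 72.7 TPM in high-extinction females. Groups of both genes overlapped in both sexes. Eif3f had a change of -0.14 (SE 0.07, DESeq2 adjusted p = 0.53) in females and 0.04 (SE 0.07) in males in the authors' deposited tables. The loosely attached subunit gene Eif3j2 had 22.1 TPM in 1 low-extinction male and was listed at 0 in the other 11 libraries, although the authors' deposited tables gave it mean normalized counts of 583.8 in males and 624.8 in females. Its near copy Eif3j1 ran from 10.7 to 13.3 TPM.

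In the eIF4F group, which includes partners of the complex, 4 of 11 genes had a change above 0 in males (48.4% of all genes). In females 5 of 11 did (44.8%). The medians were -0.02 in males and -0.03 in females, and all of these values are from the authors' deposited tables. The cap-binding protein gene Eif4e had 24.1, 25.0 and 36.0 TPM in low-extinction males, against 20.6, 37.0 and 42.1 TPM in high-extinction males, and 37.0, 41.1 and 37.2 TPM in low-extinction females, against 37.0, 39.8 and 30.0 TPM in high-extinction females. The groups overlapped, and the authors' deposited tables gave -0.02 (SE 0.07) in males and 0.01 (SE 0.06) in females. The scaffold gene Eif4g1 had 128, 126 and 127 TPM in low-extinction males, against 127, 122 and 136 TPM in high-extinction males, and 138, 139 and 144 TPM in low-extinction females, against 130, 139 and 134 TPM in high-extinction females. Its groups overlapped, and its change was -0.03 in each sex in the authors' deposited tables (SE 0.06 in males and 0.05 in females). Eif4g2, a relative of the scaffold that lacks the eIF4E-binding part, had 155, 152 and 154 TPM in low-extinction males, against 153, 166 and 169 TPM in high-extinction males, and 170, 193 and 176 TPM in low-extinction females, against 173, 272 and 167 TPM in high-extinction females. High-extinction female 2 stood above the other 11 libraries, and the authors' deposited tables gave -0.08 (SE 0.06) in males and 0.00 (SE 0.06) in females.

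The helicase gene Eif4a1, on chromosome 11 from 69666936 to 69672423, minus strand, had 64.2, 68.0 and 46.6 TPM in low-extinction males, against 65.3, 68.9 and 45.3 TPM in high-extinction males. It had 74.2, 77.9 and 72.7 TPM in low-extinction females, against 66.5, 42.7 and 70.2 TPM in high-extinction females. In each male group 1 library lay near 46 TPM and the others above 64 TPM, and the female groups did not overlap. The limma change in females was 0.35 (SE 0.18, limma adjusted p = 0.6) and the authors' deposited table gave 0.06 (SE 0.07). Without high-extinction female 2, at 42.7 TPM, the limma change was 0.13 (limma adjusted p = 0.652).

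Its paralog Eif4a2, on chromosome 16 from 23107444 to 23114136, plus strand, had 312, 318 and 304 TPM in low-extinction males, against 271, 312 and 342 TPM in high-extinction males, and 327, 348 and 345 TPM in low-extinction females, against 334, 320 and 305 TPM in high-extinction females. The groups overlapped, with changes of 0.04 (SE 0.07) in males and 0.01 (SE 0.05) in females in the authors' deposited tables. Eif4a2 contains several small nucleolar RNA genes and overlaps Rfc4 on the opposite strand.

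**Figure D3:**
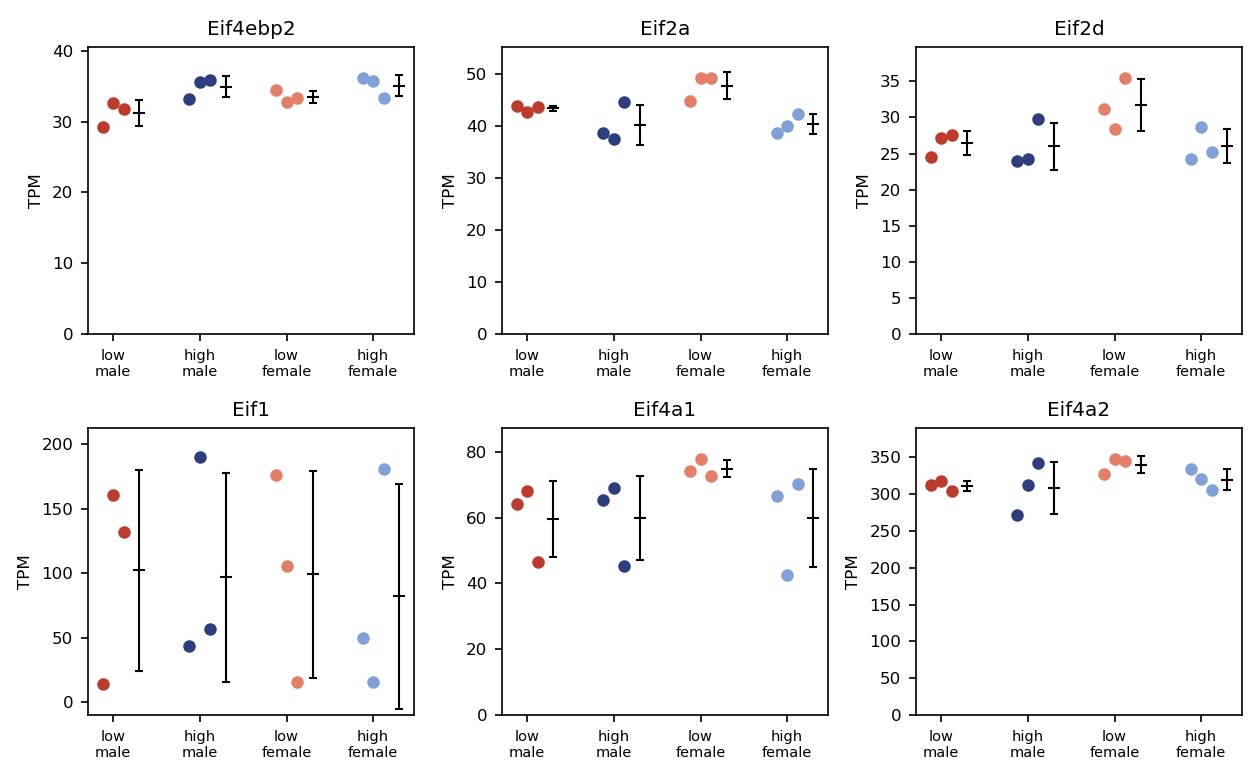
TPM of 6 members in each library (points, low extinction in red and left of high extinction in blue, within each sex), with the group mean and SD (n = 3) beside the points. Eif4ebp2 lies between 29.2 and 32.7 TPM in low-extinction males, below the 33.2 to 35.9 TPM of high-extinction males, and Eif1 spreads from 13.8 to 161 TPM in low-extinction males and from 43.7 to 190 TPM in high-extinction males.

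Of the factors that select the start codon and join the subunits, Eif5b, the gene of the GTPase of subunit joining, had 33.2, 34.8 and 32.7 TPM in low-extinction males, against 30.0, 33.9 and 35.3 TPM in high-extinction males. It had 36.0, 38.6 and 38.0 TPM in low-extinction females, against 33, 34.8 and 32.6 TPM in high-extinction females. The female groups did not overlap, and the limma change of 0.16 (SE 0.06) had a limma adjusted p of 0.55. In females 5 of 50 members had every low-extinction library above every high-extinction one (Eif2a, Eif2b3, Eif3c, Eif4a1 and Eif5b), where 14.3% of all genes did, and 0 of 50 were separated the other way (1.98% of all genes). The members' share of separated genes was thus not above that of all genes.

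Eif5, the GTPase activator of eIF2, had 76.5, 80.9 and 92.2 TPM in low-extinction males, against 79.9, 103 and 107 TPM in high-extinction males, and 87.8, 99.2 and 117 TPM in low-extinction females, against 106, 99.8 and 75.2 TPM in high-extinction females. Eif1ax, 1 of the eIF1A genes and X-linked, had 66.2, 65.2 and 65.7 TPM in low-extinction males, against 64.7, 70.3 and 76.3 TPM in high-extinction males, and 71.9, 78.9 and 78.9 TPM in low-extinction females, against 75.2, 72.7 and 73.1 TPM in high-extinction females. Groups of both genes overlapped in both sexes. Eif5 in the authors' deposited tables had changes of 0.03 (SE 0.06) in males and 0.05 (SE 0.06) in females, and Eif1ax of -0.07 (SE 0.06) and -0.02 (SE 0.05).

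Eif5a, whose product carries the amino acid hypusine and also acts in elongation, had 197, 237 and 212 TPM in low-extinction males, against 190, 215 and 213 TPM in high-extinction males. It had 212, 213 and 215 TPM in low-extinction females, against 212, 202 and 246 TPM in high-extinction females. The groups overlapped, and the authors' deposited tables gave -0.01 (SE 0.06) in males and -0.11 (SE 0.06, DESeq2 adjusted p = 0.532) in females. Eif5a2 and Eif6, which keeps the large subunit from joining too early, had changes of 0.01 (SE 0.07) and -0.02 (SE 0.10) in males and of -0.03 (SE 0.06) and -0.13 (SE 0.09) in females there.

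Eif1, which guards the choice of start codon, behaved differently in the 2 kinds of deposited value. It lies on chromosome 11 from 100319885 to 100322096, plus strand, and overlaps no other annotated gene. It had 13.8, 161 and 132 TPM in low-extinction males, against 43.7, 190 and 57.0 TPM in high-extinction males, and 176, 106 and 15.9 TPM in low-extinction females, against 49.8, 15.9 and 181 TPM in high-extinction females. Each group held libraries with several-fold different TPM, and the coefficient of variation over 12 libraries was 73.7%, against 5.61% for its paralog Eif1b. The authors' deposited tables gave Eif1 changes of -0.02 (male) and -0.08 (female), with an SE of 0.07 for both, from mean normalized counts of 3379 and 3393.

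The SE of the Eif1 change computed from log2(TPM + 1) was 1.28 in males and 1.43 in females, 18.9 and 20.6 times the count-based SE. A ratio above 3 was seen for 6 of 51 members in males (Eif1, Eif3j2, Eif4a1, Eif4a3, Eif4e and Eif4enif1), where 3.5% of all genes had one, and for 4 of 50 in females (Eif1, Eif4a1, Eif4g2 and Eif5), where 4.79% did. For these 8 genes the count-based changes were between -0.10 and 0.07 in both sexes. The cause of the discrepancy was not tested, and counts per library were not analysed here.

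**Figure D4:**
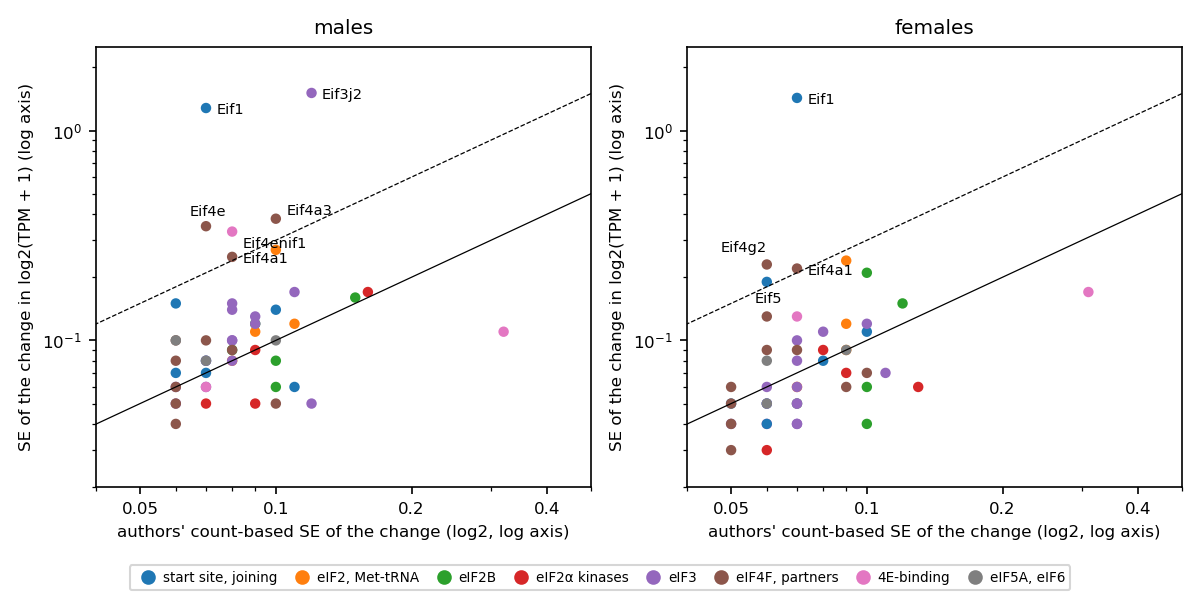
SE of the log2 change from the spread of log2(TPM + 1) between libraries (vertical, log axis) against the authors' count-based SE (horizontal, log axis) for each member and sex, coloured by role. The solid line marks equality and the dashed line a ratio of 3, and Eif1 lies 18.9-fold above equality in males and 20.6-fold in females.

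In some libraries most members lay to one side of the mean. In high-extinction male 1, where ribosomal RNA-derived transcripts took 20.4% of TPM, the median member lay 0.12 log2 units below the mean of its sex (all genes -0.07), and 44 of 51 members lay below it. In high-extinction male 3, with 9.68%, the median member lay 0.11 above it (all genes 0.07), and 10 of 51 lay below. In low-extinction female 3, with 6%, it lay 0.07 above (all genes 0.08). Without high-extinction male 1 the median male limma change of the members was -0.08, against -0.07 for all genes, and 0 members were called.

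**Figure D5:**
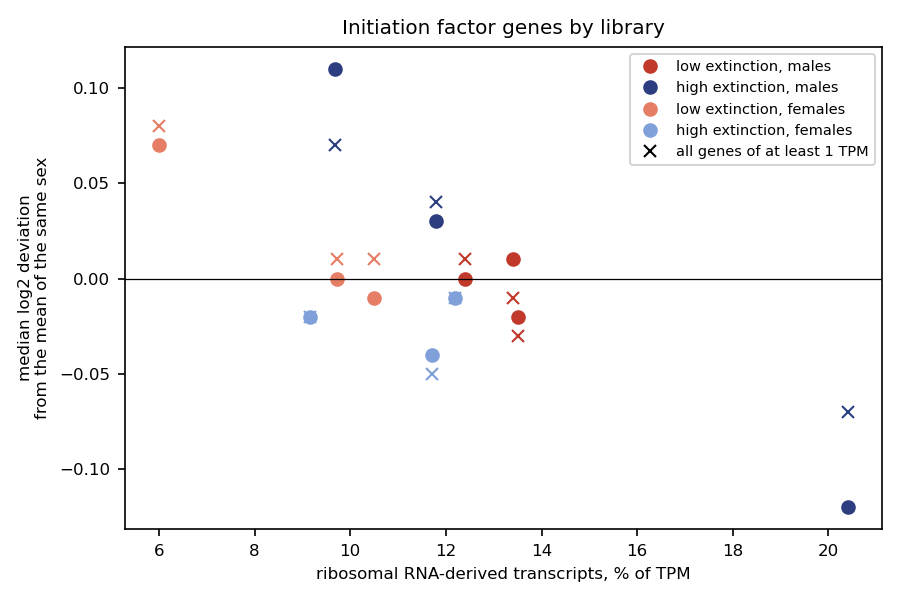
Median log2 deviation of the members (dots) and of all genes of at least 1 TPM (crosses) from the mean of the same sex, against the percent of TPM from ribosomal RNA-derived transcripts, 1 library per dot and cross. The 2 most distant libraries are high-extinction males, at -0.12 with 20.4% and at 0.11 with 9.68%, and the crosses lie near the dots.

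Genes that act around initiation were followed as lists. Of 15 genes of mTOR signalling to translation, 15 of the integrated stress response, 12 of elongation, termination and recycling and 15 other regulators of initiation, 0 were called in the authors' deposited table of males, where 0.504% of all genes were. Of these lists, which were chosen with earlier results of these data known, 1 gene was called in the authors' deposited table of females (0.857% of all genes), Slc7a11, the cystine transporter gene that ATF4 induces. Slc7a11 had 22.8, 25.0 and 25.2 TPM in low-extinction females, against 21.1, 16.7 and 19.0 TPM in high-extinction females, and 18.2, 12.1 and 12.9 TPM in low-extinction males, against 20.0, 17.0 and 19.0 TPM in high-extinction males. The female groups did not overlap, and the male groups overlapped with the other order. Its change in the authors' deposited tables was 0.30 in females (SE 0.08, DESeq2 adjusted p = 0.0228) and -0.34 in males (SE 0.24, DESeq2 adjusted p = 0.895), and by limma it was 0.35 in females (limma adjusted p = 0.496).

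Atf4 itself, the transcription factor whose translation rises when eIF2α is phosphorylated, had changes of -0.10 in males (SE 0.07, DESeq2 adjusted p = 0.921) and -0.09 in females (SE 0.07, DESeq2 adjusted p = 0.736) in the authors' deposited tables. Mtor had 0.01 (SE 0.07) and -0.07 (SE 0.06), and the elongation factor gene Eef2 0.01 (SE 0.06) and -0.08 (SE 0.06) there. By limma, 1 gene of the lists was called in females (0.0107% of all genes), Bzw1, whose product competes with eIF5 for eIF2. Bzw1 had 22, 22.5 and 24.7 TPM in low-extinction females, against 82.6, 63.6 and 75.6 TPM in high-extinction females, a limma change of -1.63 (limma adjusted p = 0.0126). The call was lost without a filter on low values (limma adjusted p = 0.0875), in the fit over all 12 libraries (0.495) and without low-extinction female 1 (0.0542). The female groups were far apart, yet the authors' deposited table gave 0.04 (SE 0.06, DESeq2 adjusted p = 0.907). In males Bzw1 had 18.2, 71.2 and 17.8 TPM at low extinction, against 17.6, 20.4 and 80.8 TPM at high extinction, so levels near 20 and above 70 TPM occurred in both groups.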

How the data were processed

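Polyadenylated RNA of 12 hippocampi was sequenced. The authors deposited TPM for each sex in a separate table, and depth per library is unknown. Per the file headers, the authors' DESeq2 tables give the mean normalized count (a signal scaled for depth), the log2 fold change, its SE, the test statistic (a score), and p-values with and without adjustment. Builds mm10 and GRCm38.p5 and the tools DESeq2, StringTie 1.3.3b, HTSeq, Bowtie2 and TopHat2 are listed in the submitters' processing notes. The role of each tool and the use of strand are not given in the sources used here. Fold changes as deposited name no direction. Across genes their correlation with the low minus high TPM change was -0.58 (male) and -0.46 (female), and 101 of 101 and 133 of 134 called genes had the opposite sign, so they were multiplied by -1.

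Genes averaging 1 TPM or more were compared as log2(TPM + 1), a scale that shrinks the changes of low genes, by limma 3.58.1 in R 4.3.3 (mean-variance trend, Benjamini-Hochberg over all genes, threshold 0.05), in each sex, and in 1 fit of all 12 libraries for the mean of both sexes and for the male minus female change. limma was used because TPM are not counts. The authors' fold changes were combined by inverse variance or subtracted between sexes, with a Wald test adjusted over 15642 genes. Simulated data with known changes were used to check the limma fit. Those changes were larger than nearly all member changes, so the check does not show that smaller ones would be found. Members and lists were chosen with earlier results of these data known. Values in each library are given for members called in any comparison, the 5 members with the smallest p in each table or fit, and a set of named core factors. Eif1 and other members outside this rule were named after their values were seen. Replicate numbers follow record order. Library correlations ran from 0.973 to 0.983 with 0 identical pairs. Positions are from GENCODE M21 on GRCm38. Python 3.11.15, pandas 2.3.3, scipy 1.17.1 and matplotlib 3.10.9 were used.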

Additional observations from a re-analysis of the deposited data

How the results depend on the processing

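Under other pseudocounts, filters, scalings, variance models, library weights, joint fits and the loss of each replicate in turn, 0 members were called in any comparison, and the smallest limma adjusted p of any member was 0.603 (males), 0.466 (females), 0.268 (average) and 0.428 (male minus female change). Of 3647 member values under these alternatives, 3576 stayed within the spread between replicates and 71 moved beyond it. Other filters, variance models and joint fits leave the difference between group means as it was. Part of this agreement was therefore fixed in advance, and it is no measure of robustness. With libraries centred on their medians the median male minus female change of the members was 0.04, against -0.07 as reported, while that over all genes was 0.02, against -0.09. Centring moves every gene of a library by the same amount. Leaving out 1 replicate gave members' medians from -0.08 to 0.03 (males), 0.02 to 0.06 (females), -0.02 to 0.04 (average) and -0.15 to -0.02 (male minus female). The average limma change of Eif4ebp2 ran from -0.14 to -0.09 and that of Eif2a from 0.15 to 0.21. In females the limma change ran from -0.14 to -0.04 for Eif4ebp2, 0.17 to 0.28 for Eif2a and 0.19 to 0.34 for Eif2d. For Eif5b it ran from 0.09 to 0.19 there, and for Eif3c from 0.05 to 0.16. Bzw1 in females kept a change from -1.73 to -1.55 over these alternatives and was called in 12 of 15. Counts of all genes called by limma ran from 0 to 6 (males), 0 to 10 (females), 0 to 3 (sexes averaged) and 1 to 4 (male minus female), against 202 and 64 with the authors' fold changes combined or subtracted. No paired analysis was possible because the labels carry no replicate numbers and those used follow record order. With 3 mice per group and unknown depth per library, changes of a few percent cannot be resolved for single members.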
